A study of Bos taurus with 17 samples.

Results

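A set of 10 genes encodes the core of polyamine synthesis and breakdown and its control by antizymes. Of these genes, 8 were among the 10346 gene symbols with a usable probe in the series, and SMS was read through an SMS-like gene. The 10 genes are ODC1, AMD1, SRM and SMS for synthesis, SAT1, SAT2 and SMOX for breakdown, the antizymes OAZ1 and OAZ2, and the antizyme inhibitor AZIN1. Their signals were followed in bovine cumulus cells, the somatic cells around the oocyte, at 3 stages of oocyte developmental competence acquisition. NC1 cells came from 6 prepubertal calves aged 3 to 6 months, by post mortem aspiration of follicles of 3 to 6 mm. C1 cells came in the same way from 6 adult cows of different ages, and both stages hold only complexes with compact cumulus around a prophase I oocyte. C2 cells came from 5 cycling, non-lactating Holstein cows of 3 to 5 years that carried progestagen ear implants and were superovulated with a porcine FSH/LH preparation. Ovum pick-up in vivo followed prostaglandin F2α by 60 h and took C2 complexes from follicles over 8 mm, and only those with expanded cumulus and a mature oocyte were kept. Animal age therefore changed together with stage between NC1 and C1. Between C1 and C2 the hormones, the follicle size, the mode of collection and the source of the cows did. The C1 cows came from a slaughterhouse and the C2 cows from a farm. Breed, cycling and lactation are given for C2 only, and no matching by age is stated. None of these can be told apart from stage. Each of the 17 samples was measured on 1 Agilent 1-colour array.

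Putrescine, spermidine and spermine are small, positively charged molecules that bind nucleic acids and are needed for growth and translation. Ornithine decarboxylase (ODC1) makes putrescine from ornithine, and spermidine synthase (SRM) and spermine synthase (SMS) add aminopropyl groups that come from S-adenosylmethionine after its decarboxylation by AMD1. In the other direction, SAT1 acetylates spermidine and spermine for export or oxidation, and SMOX oxidises spermine directly. Antizymes bind ODC1 and send it to the proteasome, and their own synthesis is controlled mainly by a polyamine-dependent ribosomal frameshift, while the antizyme inhibitor AZIN1 takes antizyme away from ODC1. ODC1, AMD1 and the antizymes are thus controlled to a large extent after transcription, and the array reads only transcript levels.

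The array held 15 probes chosen by gene name, or by description where the name was a LOC number. The SAT1 and SAT2 probes carried other names and were matched by accession. Each value below is the log2 of a probe's background-subtracted signal minus the log2 median signal of its array, so that 0 is the median probe. A probe was tested when it stood well above background on 80% or more of the arrays in every stage, as were 13865 of the 21475 probes on the array. Of the 15 probes, 10 passed and represented 9 of the 10 genes. OAZ2 had no usable probe: its single probe stood above background on 1 of the 6 C1 arrays and on none of the NC1 or C2 arrays. SMS was represented by a probe of LOC534520, a gene described as SMS-like that RefSeq (assembly ARS-UCD2.0) lists under its own gene ID, since the probe named SMS stood above background on only 2 of the 6 C1 arrays and on no array of the other stages.

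To show what was read, the first 30 bases of the 60-base probes are given for the 4 genes that passed a test below and for the pair of probes for ornithine decarboxylase, 5′ to 3′ and as the authors deposited them.
SAT1: cttcattcttgtgagtcatttaaatgtgta
SMS (LOC534520): ctaaatgcactgaacccctagaatgtgatt
SRM: tagcgggtggactgtctgtcttcctctggg
OAZ1: gttctcttaacttggaaagataggtattaa
ODC1: caccaatgtggaagactgggagatggggtc
ODC1-like (LOC508426): ttccagggcacatccaaaggccaagcttct
The ODC1 and ODC1-like probes have no run of over 5 bases in common, and RefSeq lists LOC508426 as a pseudogene.

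The cells were checked against markers of the tissue. FSHR, FOXL2, INHA, FST and the other 4 listed cumulus and granulosa markers were above background on every NC1 and C1 array, and 7 of the 8 on every C2 array. Their summed signal was 1200 to 4430 times the array median in C2, 3790 to 5440 in C1 and 3650 to 8560 in NC1. Each read lower on average in C2 than in both immature stages. Against C1 the log2 differences ran from -0.29 for INHA (limma adjusted p = 0.449) to -3.55 for FSHR (2.31e-09). INHA and INHBA were not called, and AMHR2 was not tested. Of the 5 genes listed for expanded cumulus, 4 (HAS2, PTX3, TNFAIP6 and PTGS2) had a probe, and their summed signal was 541 to 1490 times the array median on C2 arrays against 3.67 to 55.9 times on C1 arrays. Markers of other cells also differed with stage, in part through single genes. The summed signal of 8 oocyte markers ran from 50.5 to 118 times the array median in NC1, from 4.56 to 47.3 in C1 and from 3.15 to 6.05 in C2, with BMP15, ZP2, MOS and ZAR1 above background on no C2 array. The sum of 7 leukocyte markers was 3.54 to 25.5 in C2 against 3.13 to 4.69 in C1. Every leukocyte probe was higher on average in C2 than in C1, with CD14 and LCP1 called. In NC1 that sum was 4.43 to 11.2 and overlapped C2. In C2 against NC1, CSF1R read -0.47 and CD68 0.01, and PTPRC was called (0.99, limma adjusted p = 0.00314). In 3 lists the sum followed some members while others did not move with them, in C2 against C1. In NC1 these sums were 1.18 to 2.51 for endothelium, 156 to 285 for theca and stroma and 28.1 to 130 for red blood cells. The sum of 5 endothelial markers, 2.56 to 11.2 in C2 against 1.1 to 1.36 in C1, followed KDR (log2 difference 3.58), while PECAM1 (-0.70) and TEK (-0.78) read lower, VWF read 0.49 and CDH5 was above background on no array. The sum of 6 theca and stroma markers, 271 to 599 against 185 to 286, followed LUM (3.79), COL3A1 (3.52) and COL1A1 (1.15), while INSL3 (-0.78), CYP17A1 (-0.25) and DCN (-0.07) did not follow. The sum of 4 red blood cell markers, 2.55 to 51.5 against 73 to 258, was that of HBA (-4.01), beside HBB at 0.57, ALAS2 at 0.27 and AHSP at -0.32. Their part in the differences below was not tested, and in such bulk RNA fewer cells of a type and less RNA per cell cannot be told apart. Between 66.2% and 82.8% of probes stood above background on an array and no spot was saturated. C2 replicates 1 and 5 lay close to each other, with an SD of 0.44 over the differences of all tested probes, as did replicates 3 and 4 (0.51), while the other C2 pairs had SDs from 1.05 to 1.27. Replicates 3 and 4 were scanned on the later of the 2 scan days and the other C2 arrays on the earlier one.

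From compact to expanded cumulus of adult cows, SAT1 rose 12.1-fold, OAZ1 rose 1.63-fold and the SMS (LOC534520) probe rose 2.10-fold. These were 3 of the 9 genes tested (limma, adjusted p under 0.01, adjusted over all tested probes), against 15.3% of all tested probes that were higher in C2 than in C1. No gene of the 9 was lower, where 12.8% of all tested probes were, and at an unadjusted p under 0.05 limma gave 6 higher and 0 lower, against 26.6% and 22.3% of all tested probes. The median difference over the 9 genes was 0.55 on the log2 scale, beside 0.02 over all tested probes. The same C2 arrays against NC1 gave 3 higher genes as well, SAT1, SMS (LOC534520) and SRM, against 15.5% of all tested probes, and 0 lower against 12.6% (2152 and 1741 probes, or 2468 and 1200 after normexp background correction), with 5 higher and 0 lower at an unadjusted p under 0.05, against 27.5% and 21.1%. This second comparison shares the C2 arrays with the first and is not independent of it. Between the immature stages, C1 against NC1, no gene was called in either direction, where 0.00721% of all tested probes were higher and 0.0505% lower. At an unadjusted p under 0.05 limma gave 1 lower gene, SAT1, and 0 higher, against 4.84% and 5.01% of all tested probes. Over the 3 stages together 4 of the 9 genes differed (SAT1, SMS, SRM and OAZ1), against 28.6% of all tested probes. Apart from SAT1, the calls were of 1.63-fold to 2.10-fold differences. When each stage was given its own spread, a setting chosen after the data had been seen, SAT1 was the only call left among the 9 genes in either comparison with C2. Without C2 replicate 2 the count of called genes in C2 against C1 was 5, and without C1 replicate 1 or C2 replicate 3 or 4 it was 1, SAT1.

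**Figure D1:**
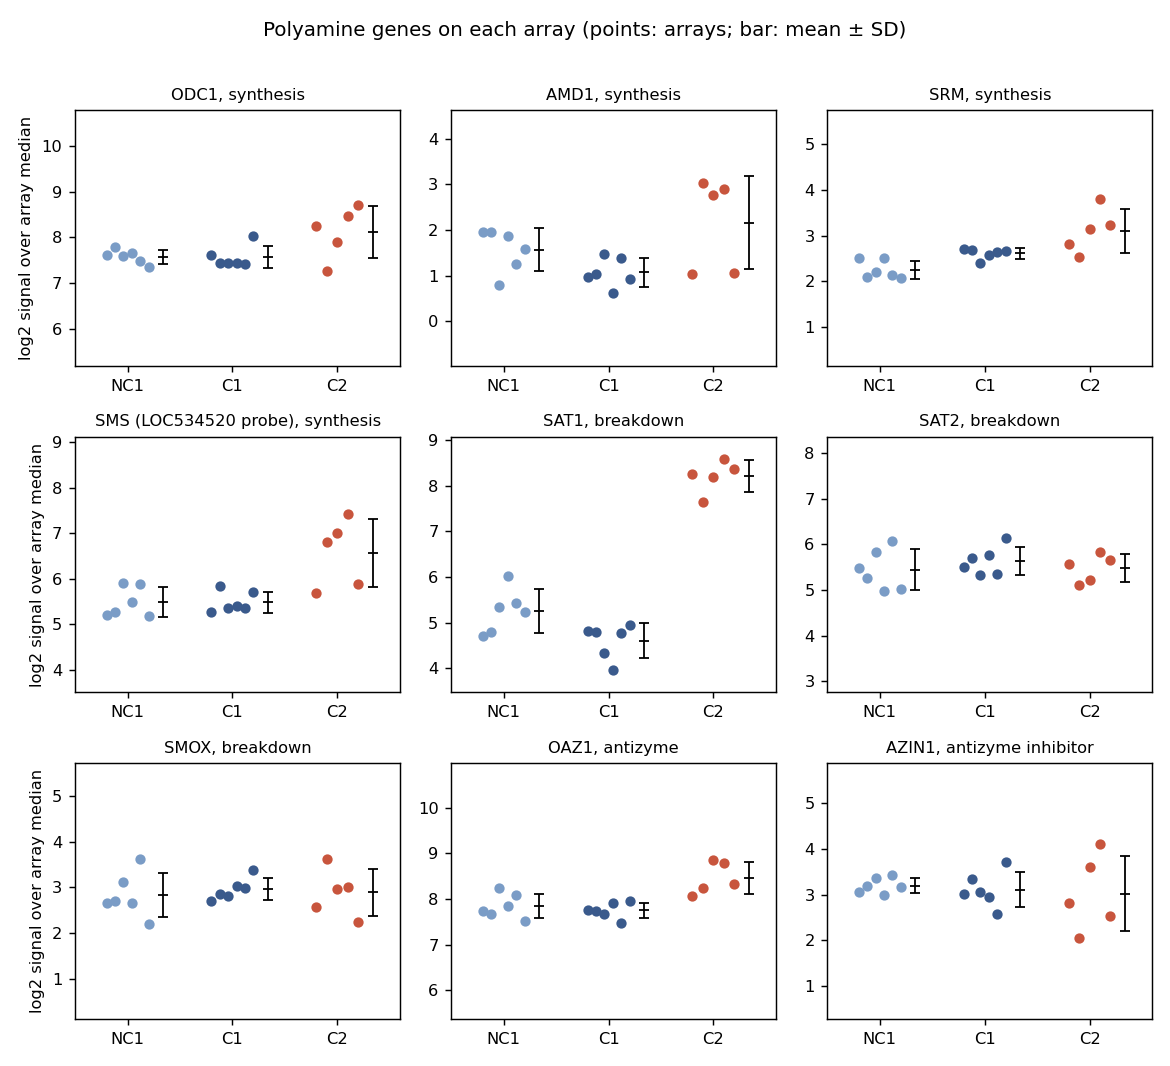
Signal of the 9 measured polyamine genes on each array, as log2 of the signal over the array median (vertical axis, all panels spanning the same range), by stage (NC1 n = 6, C1 n = 6, C2 n = 5). Points are arrays and the black bar is the mean ± SD. SAT1 in C2 stands clear of both immature stages, between 7.64 and 8.58, while AMD1 in C2 divides into 2 low and 3 high arrays.

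Among the enzymes of breakdown, SAT1 stood apart. SAT1, spermidine/spermine N1-acetyltransferase, carries out the rate-limiting step of polyamine catabolism. Its log2 signal on the C2 arrays was 8.27, 7.64, 8.19, 8.58 and 8.36. On the C1 arrays it ran from 3.96 through a median of 4.79 to 4.96, and on the NC1 arrays from 4.72 through 5.28 to 6.03. Every C2 array lay above every immature array, the gap to the highest C1 array being 2.68 and that to the highest NC1 array 1.61. Without overlap in this sense were 2 of the 9 genes in C2 against C1 (SAT1 and OAZ1), against 21.6% of all tested probes, and 2 of the 9 in C2 against NC1 (SAT1 and SRM), against 20.9%.

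The C2 mean of SAT1 exceeded that of C1 by 3.60 ± 0.25 on the log2 scale (SE, limma adjusted p = 3.65e-09). Over NC1 the difference was 2.95 ± 0.25 (adjusted p = 4.38e-08), which is 7.73-fold. Among all tested probes these were the 156th and the 192nd largest differences upward. The exact 2-sided permutation test gave p = 0.00433 in both, the smallest value that 5 against 6 arrays can give. Each of the 6 slides held arrays of both immature stages, and 5 of them a C2 array. Within those 5 slides the C2 array exceeded the C1 array of the same slide by 2.87 to 4.25. Against NC1 the lowest of 30 alternative settings or left-out arrays gave 2.70 and the highest 3.17, and against C1 the range was 3.38 to 3.74, each with an adjusted p of 0.000157 or less. In C1 SAT1 was 0.65 lower than in NC1 (95% interval from -1.14 to -0.16), which did not pass after adjustment over all probes (limma adjusted p = 0.31, exact permutation p = 0.0281). A second probe described as SAT-like, LOC520807, was above background on 2 of the 5 C2 arrays and on none of the 12 immature arrays, so that no fold was computed for it.

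The other enzymes of breakdown were not called in any comparison. SAT2 is a relative of SAT1 that prefers other substrates, among them thialysine. Its log2 signal was 5.58, 5.11, 5.22, 5.83 and 5.66 in C2, against 5.33 to 6.14 in C1 and 4.97 to 6.09 in NC1, and the stages overlapped. C2 minus C1 was -0.16 for SAT2 (95% interval from -0.63 to 0.31, limma adjusted p = 0.594). SMOX, spermine oxidase, which turns spermine back into spermidine, gave 2.58, 3.63, 2.97, 3.02 and 2.25 in C2, against 2.70 to 3.39 in C1 and 2.21 to 3.62 in NC1. C2 minus C1 was -0.07 for SMOX (95% interval from -0.61 to 0.46, limma adjusted p = 0.839), and the C2 arrays spanned both immature stages. Against NC1 the differences were 0.03 for SAT2 and 0.06 for SMOX, and their sign turned with the scaling of the arrays. Neither interval against C1 reached the lower end of that for SAT1, 3.08.

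**Figure D2:**
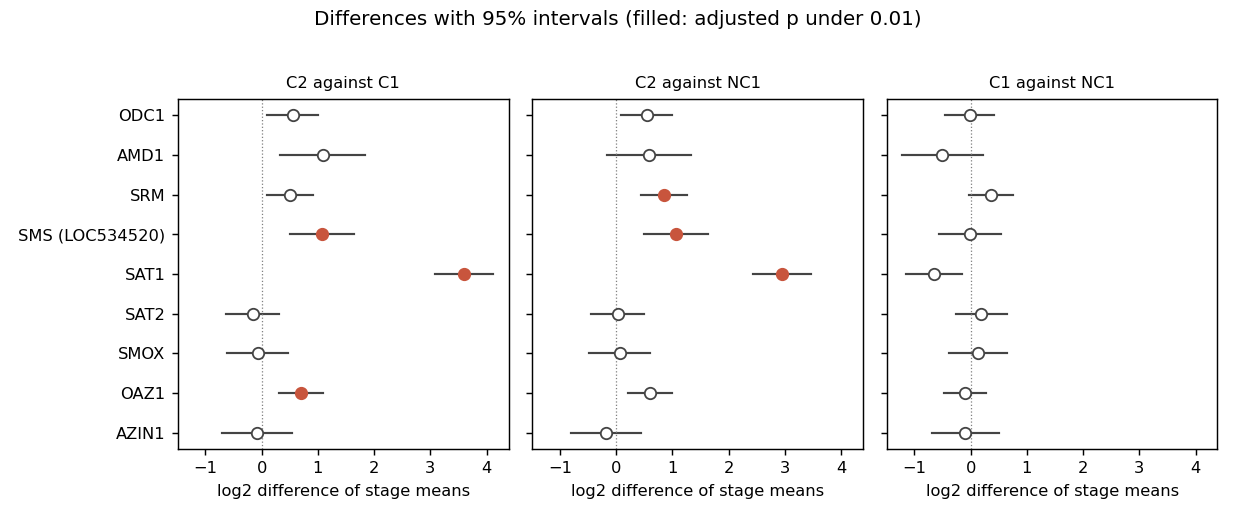
Differences between stage means on the log2 scale (horizontal axis) for the 9 genes, in 3 panels, from left to right C2 minus C1, C2 minus NC1 and C1 minus NC1. Points are limma estimates with 95% intervals, and filled points have an adjusted p under 0.01. SAT1 lies at 3.60 and 2.95 in the comparisons with C2, and no point of C1 against NC1 is filled.

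Among the enzymes of synthesis, spermine synthase, as read by the LOC534520 probe, was higher in C2 than in both immature stages. Its log2 signal in C2 was 5.69, 6.80, 7.00, 7.43 and 5.88, against 5.27 to 5.84 in C1 and 5.19 to 5.90 in NC1. Replicates 2, 3 and 4 lay above every immature array, whereas replicates 1 and 5 lay within the range of NC1. C2 exceeded C1 by 1.07 ± 0.27 for SMS (SE, limma adjusted p = 0.00424, exact permutation p = 0.013). Over NC1 the difference was 1.07 as well (limma adjusted p = 0.00446, exact permutation p = 0.026). With the slide as a block both calls were lost (adjusted p = 0.0107 and 0.0113), and within slides C2 minus C1 ran from -0.02 to 2.08 and was positive in 4 of 5. Without C2 replicate 3 or 4 both calls were lost, with adjusted p between 0.0138 and 0.0148. The call against C1 was also lost without C1 replicate 1 (0.0104), and that against NC1 without C2 replicate 2 (0.0104), without NC1 replicate 1, 2 or 6 (0.0109 to 0.0115) and after quantile normalization (0.0116). Both were also lost when each stage was given its own spread (adjusted p = 0.088 and 0.0884) and with array weights (0.0112 and 0.0121). A second LOC534520 probe, which was not tested because it stood above background on 3 of the 6 NC1 arrays, gave -2.82, -1.84, -1.23, -1.22 and -2.64 in C2, again lowest in replicates 1 and 5. The LOC534520 probes have no run of over 6 bases in common, and whether they read SMS itself was not tested.

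AMD1, S-adenosylmethionine decarboxylase, showed the same division of the C2 arrays. Its log2 signal was 1.02 and 1.06 in C2 replicates 1 and 5, within the C1 range of 0.61 to 1.47. In replicates 2, 3 and 4 it was 3.02, 2.77 and 2.89, above every C1 and NC1 array. NC1 ran from 0.80 to 1.96. C2 exceeded C1 by 1.09 ± 0.36 (SE), which did not pass (limma adjusted p = 0.0215, exact permutation p = 0.0563), and C2 minus NC1 was 0.58 (limma adjusted p = 0.209). Without C2 replicate 1 the difference between C2 and C1 was 1.37 (adjusted p = 0.00373), and without replicate 5 it was 1.36 (adjusted p = 0.00431). The SD of AMD1 in C2 was 1.02, against 0.32 in C1 and 0.47 in NC1, and 86.0% of all tested probes had a smaller SD in C2. C1 minus NC1 was -0.50 for AMD1 (95% interval from -1.22 to 0.22, limma adjusted p = 0.688), with C1 the lower array on each of the 6 slides. A probe from an expressed sequence tag described as AMD1, which falls outside the rule for choosing probes and enters no count, gave 3.24, 3.85, 4.56, 4.75 and 3.72 in C2. That tag ran from 2.46 to 3.36 in C1 and from 3.49 to 4.18 in NC1. C1 minus NC1 was -0.68 for the tag (limma adjusted p = 0.291, exact permutation p = 0.00216), and C2 minus NC1 was 0.33 (limma adjusted p = 0.314). It was called higher in C2 than in C1 (1.01 ± 0.25, limma adjusted p = 0.00346). That call was lost without C2 replicate 3 (0.0127) or 4 (0.0117), with array weights (0.0145), after normexp background correction (0.0188) and with unequal spreads (0.0629). The 2 AMD1 probes thus ordered the C2 arrays differently, replicate 2 being the highest by the first and in the middle by the second.

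**Figure D3:**
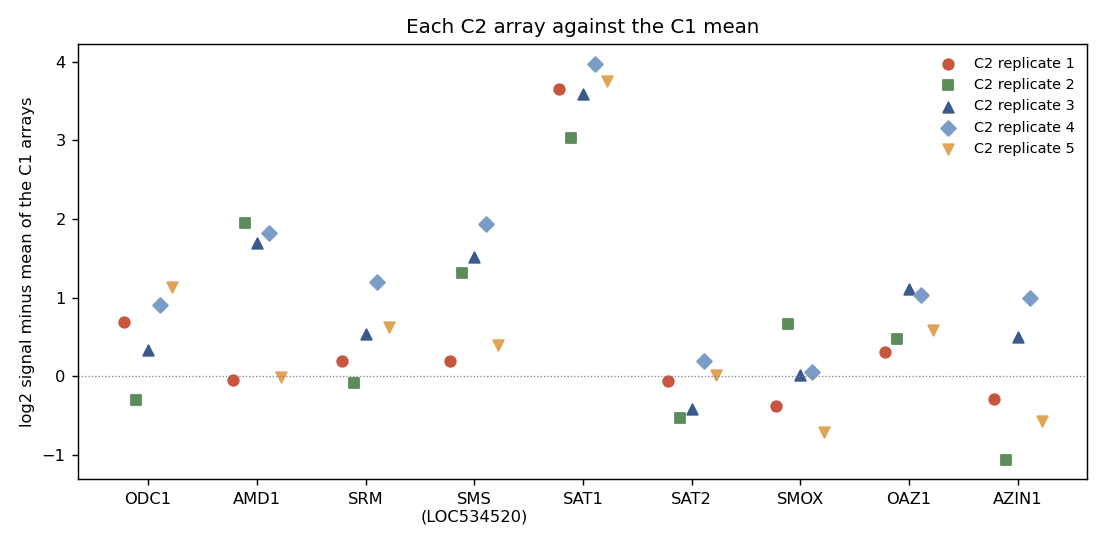
Log2 signal of each of the 5 C2 arrays minus the mean of the 6 C1 arrays (vertical axis) for the 9 genes, with 1 symbol per C2 replicate. The points of a gene are set side by side only to separate them. SAT1 is 3.04 to 3.98 above the C1 mean on every array, while in replicates 1 and 5 AMD1 lies at -0.04 and -0.01 and SMS (LOC534520) at 0.20 and 0.40, and in replicates 2, 3 and 4 both lie between 1.31 and 1.96.

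SRM, spermidine synthase, was higher in C2 than in NC1. Its log2 signal was 2.81, 2.53, 3.15, 3.81 and 3.23 in C2, 2.07 to 2.51 in NC1 and 2.40 to 2.71 in C1. C2 and NC1 did not overlap, by a gap of 0.02, and the difference was 0.85 ± 0.19 (SE, limma adjusted p = 0.00186, exact permutation p = 0.00433), or 1.81-fold. The call against NC1 was lost when each stage was given its own spread (adjusted p = 0.0528) and in no other setting. C2 minus C1 was 0.50 (limma adjusted p = 0.0481), and without C2 replicate 2 it was 0.64 (adjusted p = 0.00903). No other left-out array gave a call against C1, the difference running down to 0.32 with limma adjusted p up to 0.154. On each of the 5 slides with a C2 array C2 exceeded NC1, by 0.30 to 1.31. C1 minus NC1 was 0.36, with C1 higher on 5 of 6 slides, and did not pass (limma adjusted p = 0.566, exact permutation p = 0.00866). The C1 arrays of SRM lay close together, with an SD of 0.11 that only 1.16% of all tested probes undercut.

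ODC1, the first enzyme of the pathway, read 8.26, 7.26, 7.90, 8.47 and 8.70 in C2, against 7.42 to 8.03 in C1 and 7.34 to 7.79 in NC1. Replicate 2 was the lowest array of all 17 and replicates 1, 4 and 5 were the highest. C2 exceeded C1 by 0.55 ± 0.22 (SE), which did not pass (limma adjusted p = 0.0493, exact permutation p = 0.0606), and exceeded NC1 by 0.54 (limma adjusted p = 0.0551). Without C2 replicate 2 the differences were 0.77 (adjusted p = 0.00242) and 0.76 (adjusted p = 0.00284). No other left-out array gave a call. Over them the differences ran down to 0.41 and 0.39, with limma adjusted p up to 0.146 and 0.163. The ODC1-like LOC508426 probe gave 2.20, 1.36, 1.12, 0.71 and 1.89 in C2, 0.20 to 1.04 in C1 and 0.05 to 1.72 in NC1. It was not called in any comparison (C2 minus C1 0.80, limma adjusted p = 0.0544). Another probe, described as ODC-like and assigned to LOC529108, was above background on all 6 C1 arrays but on 3 of 5 C2 and 3 of 6 NC1 arrays, and was not tested.

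OAZ1, the major antizyme, read 8.06, 8.23, 8.86, 8.79 and 8.34 in C2 and 7.49 to 7.96 in C1. The arrays of C2 and C1 did not overlap, by a gap of 0.10, and C2 exceeded C1 by 0.70 ± 0.18 (SE, limma adjusted p = 0.0051, exact permutation p = 0.00433). In NC1 OAZ1 ran from 7.52 to 8.25 and overlapped C2, and the difference of 0.60 did not pass (limma adjusted p = 0.0133, exact permutation p = 0.0216). On each of the 5 slides that held a C2 array OAZ1 was higher in C2, by 0.10 to 1.12 over C1 and by 0.26 to 0.93 over NC1. The call against C1 was lost without C1 replicate 1, 3 or 5 and without C2 replicate 3 or 4, with adjusted p up to 0.0183. It was also lost after normexp background correction (0.0321), with the close C2 arrays averaged (0.0212) and when each stage was given its own spread (0.0355). Against NC1 a call was gained without C2 replicate 1 (0.0071) or NC1 replicate 3 (0.00672) and under 4 other settings, with adjusted p from 0.00397 to 0.00935.

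AZIN1, which resembles ornithine decarboxylase but has no such activity, was not called in any comparison. Its log2 signal in C2 was 2.82, 2.05, 3.61, 4.11 and 2.54, below and above the C1 range of 2.57 to 3.72 and the NC1 range of 2.99 to 3.42. C2 minus C1 was -0.09 (95% interval from -0.70 to 0.53, limma adjusted p = 0.836). The close C2 pairs lay apart from each other for AZIN1, replicates 3 and 4 being the highest and replicates 1 and 5 below the medians of both immature stages, with replicate 2 the lowest.

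Next, the members were set beside 37 other genes around the pathway, of which 34 had a probe and 27 a tested one. Of these 27, 5 were higher and 5 lower in C2 than in C1, and 2 were higher and 6 lower in C2 than in NC1. The shares over all tested probes were 15.3% higher and 12.8% lower against C1 and 15.5% and 12.6% against NC1. The median difference over the 27 was -0.21 against C1 and -0.39 against NC1, beside 0.02 and 0.11 over all tested probes. Between C1 and NC1 none was called. At an unadjusted p under 0.05 limma gave 0 higher and 3 lower, against 5.01% and 4.84% of all tested probes.

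**Figure D4:**
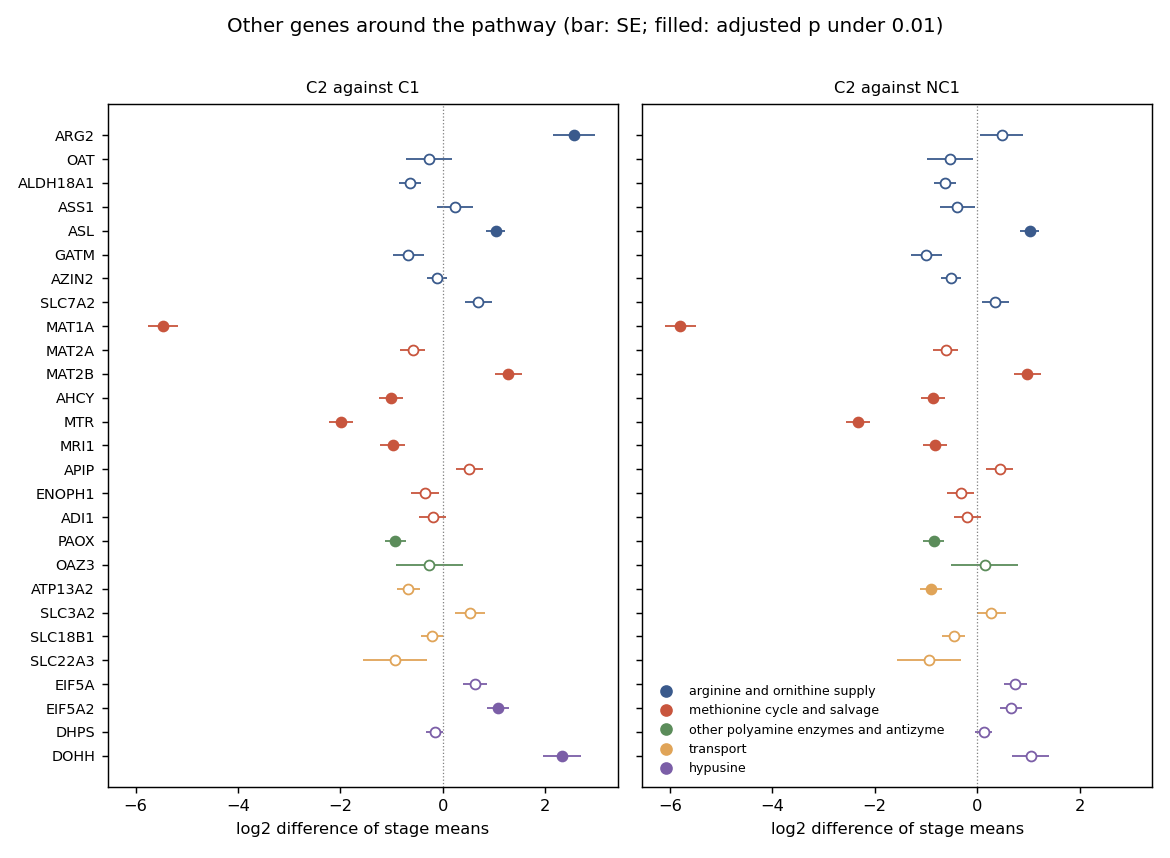
Differences on the log2 scale (horizontal axis) of the 27 other genes in C2 against C1 (left) and C2 against NC1 (right), coloured by the list they belong to. Points are limma estimates, bars are standard errors, and filled points have an adjusted p under 0.01. MAT1A at -5.46 and -5.79 is the lowest point of both panels, and ARG2 and DOHH are the highest of the left panel.

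The genes of the methionine cycle, which supplies the aminopropyl groups, and of methionine salvage gave 1 higher and 4 lower of 9 in both comparisons with C2. Of all tested probes 15.3% were higher and 12.8% lower against C1, and 15.5% and 12.6% against NC1. The lowest was MAT1A, an S-adenosylmethionine synthetase subunit best known from liver, measured by an expressed sequence tag described as MAT1A. It read 2.09 to 3.48 in C1, 2.64 to 4.11 in NC1 and -3.11 to -2.35 in C2, a difference of -5.46 ± 0.30 against C1 (SE, limma adjusted p = 1.93e-10). The probe that carries the gene ID of MAT1A was too dim to be tested, being above background on 4 of the 6 C1, 3 of the 6 NC1 and no C2 arrays. Its means were -3.98 in C1, -3.73 in NC1 and -5.52 in C2. MAT1A thus entered the counts through the tag alone, whereas the tag of AMD1 entered none. Methionine synthase (MTR) fell by 1.99 against C1 (limma adjusted p = 3.4e-06) and by 2.32 against NC1. AHCY, which removes S-adenosylhomocysteine, fell by 1.02 (limma adjusted p = 0.00167) and MRI1, an enzyme of methionine salvage, fell by 0.98 (0.003) against C1. MAT2B, the regulatory subunit of the S-adenosylmethionine synthetase found in most tissues, rose by 1.27 against C1 (limma adjusted p = 0.000893). Against NC1 the calls of MAT2B, AHCY and MRI1 were lost in 12, 12 and 22 of 31 alternatives, with adjusted p up to 0.0696, 0.0473 and 0.106, among them 6, 6 and 14 single left-out arrays.

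On the side of arginine and ornithine, 2 of 8 genes were higher in C2 than in C1 and none lower, against 15.3% and 12.8% of all tested probes. That list also held AZIN2, a second antizyme inhibitor, which was not called. At an unadjusted p under 0.05 limma gave 3 higher and 2 lower against C1, beside 26.6% and 22.3% of all tested probes. Against NC1 it gave 1 higher and 3 lower, beside 27.5% and 21.1%. ARG2, the mitochondrial arginase that makes ornithine, read 3.68, 4.66 and 5.40 as the lowest, median and highest C2 arrays and 1.05, 2.06 and 2.76 as those of C1. The difference was 2.55 ± 0.41 (SE, limma adjusted p = 7.69e-05). In NC1 ARG2 read 2.52 to 4.86, and C2 minus NC1 was 0.47 (limma adjusted p = 0.385), while C1 minus NC1 was -2.08 (limma adjusted p = 0.0277) and became a call without NC1 replicate 3 or with array weights. ASL, argininosuccinate lyase, was 1.03 higher in C2 than in C1 (limma adjusted p = 0.000292) and 1.02 higher than in NC1. PAOX, the oxidase that takes up the acetylated products of SAT1, was lower in C2, at 4.43 to 5.47 against 5.62 to 6.29 in C1 and 5.52 to 6.16 in NC1. For PAOX the difference was -0.93 ± 0.21 against C1 (SE, limma adjusted p = 0.0016) and -0.85 against NC1 (limma adjusted p = 0.0033), with no overlap of arrays in either. The PAOX call against C1 was lost with array weights (adjusted p = 0.0128) and with unequal spreads (0.0332). That against NC1 was lost without C2 replicate 3 (0.012) or 4 (0.0104), with the replicate block (0.0141) and in 3 other settings, with adjusted p up to 0.0443.

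Among the transporters limma called 0 of 4 against C1, where 15.3% of all tested probes were higher and 12.8% lower. At an unadjusted p under 0.05 it gave 0 higher and 1 lower, against 26.6% and 22.3% of all tested probes. ATP13A2, a lysosomal polyamine exporter, fell by 0.91 against NC1 (limma adjusted p = 0.00295), a call lost in 4 of 31 alternatives with adjusted p up to 0.0188, and read -0.68 against C1 (0.0195). Spermidine also gives the hypusine residue of the translation factor EIF5A, and of the 4 genes of that step 2 were higher in C2 than in C1, against 15.3% of all tested probes. DOHH, which completes hypusine, rose by 2.32 ± 0.37 (SE, limma adjusted p = 6.45e-05), with the C2 arrays at 3.84 to 5.11 and the C1 arrays at 1.16 to 3.52. In NC1 DOHH read 2.91 to 4.31 and overlapped C2. For DOHH C2 minus NC1 was 1.04 (limma adjusted p = 0.0309) and C1 minus NC1 was -1.28 (limma adjusted p = 0.138). EIF5A2, a second EIF5A gene, rose by 1.08 (limma adjusted p = 0.000594). Its probe was dim, with means of -1.29 in C2, -2.37 in C1 and -1.94 in NC1. The EIF5A2 call was lost after normexp background correction (0.49, limma adjusted p = 0.0369). The remaining genes, named here after their values were seen, were not called: EIF5A itself (0.62, limma adjusted p = 0.0365) and DHPS, which starts hypusine (-0.16, limma adjusted p = 0.44). Against NC1 limma called 0 of the 4, where 15.5% of all tested probes were higher and 12.6% lower. At an unadjusted p under 0.05 it gave 3 higher and 0 lower, against 27.5% and 21.1% of all tested probes.

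Finally, genes whose profile was most like that of SAT1 were sought. Likeness was the SD, over the 17 arrays, of the difference between the log2 signals of both genes, and 10180 genes were compared. The 5 closest were ANXA2 (SD 0.29), NDRG4 (0.33), GPRC5B (0.35), TGFBR2 (0.35) and SAMD8 (0.36), against a median SD of 1.63 over all genes compared. ANXA2 codes for annexin A2, a calcium-dependent membrane-binding protein, and TGFBR2 for a receptor of TGF-β. These 5 genes were 3.01 to 3.81 higher in C2 than in C1 and 2.61 to 3.41 higher than in NC1. As with SAT1, their C1 means lay 0.21 to 0.47 below those of NC1. The genes were picked for likeness to SAT1 on these same arrays, so the shared rise and order follow from the choice. The arrays of a stage come from different animals but share the kind of animal and the collection. These profiles are therefore a description with no test.

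**Figure D5:**
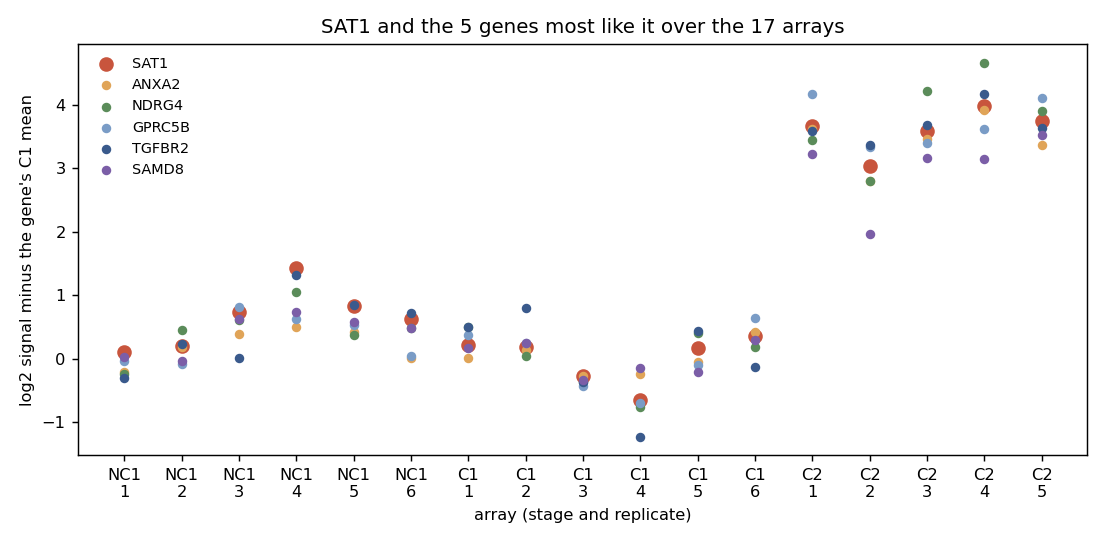
Log2 signal minus the gene's own C1 mean (vertical axis) of SAT1 (large points) and the 5 genes most like it (small points) on each of the 17 arrays (horizontal axis). The C2 arrays stand together above the immature ones, SAT1 lying between 3.04 and 3.98 on them.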

How the data were processed

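Cumulus cell RNA (0.35 µg, Cy3) was hybridised to 17 Agilent 1-colour bovine arrays (21475 probes), 1 per sample. The methods count as many calves or cows as arrays in each stage. The authors deposited spot intensity values from Agilent Feature Extraction 10.5.1.1, background-subtracted and not scaled between arrays, and a log2 table of 15256 probes scaled to the array median in GeneSpring, which equals the spot values for nearly all probes apart from 1 constant per array. The number of arrays limits the precision.

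Here the intensity was taken as log2, averaged over the spots of a probe without outlier spots, and centred on the array median of all non-control probes. Probes present on 80% of the arrays of each stage (13865) were fitted with limma 3.58.1 in R 4.3.3, all stages in a single model, and p-values were adjusted by Benjamini-Hochberg across these probes. The threshold was an adjusted p under 0.01. Exact 2-sided permutation tests over arrays and intervals of 95% were added (Python 3.11.15, scipy 1.17.1). The fit was tested on simulated data. An exact p adjusted over all probes cannot pass the threshold, so it made no calls.

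The genes and lists were chosen with earlier results of these data known. Every probe of the 10 genes is named. Of several usable probes of a gene, the one with the highest mean signal entered the counts, and a tag describing AMD1 was kept out of them. For the genes around the pathway tags were not kept out, that of MAT1A among them. Genes around the pathway are named where called in a comparison. Alternatives were other scalings (75th percentile, quantile), normexp background correction, array weights, dim-probe filters, the log2 table, slide, scan day or replicate number as a block, the one-factor test of the methods, and each array left out. After seeing the data, unequal spreads, averaging of close C2 arrays and only probes of a member's own gene ID were added. No genome was used here, so no coordinates are given, and names follow RefSeq.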

Additional observations from a re-analysis of the deposited data

Results flagged for a closer look

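The ODC1 level of C1 replicate 6 stood apart from the other 5 C1 arrays. It was 8.03 on the log2 scale over the array median, the next array being at 7.62 and the lowest at 7.42, so that its gap to the next array took 0.672 of the range of the stage. It was 1 of 33 groups of arrays examined for a value of this kind, and chance alone marks about 1 group in 20.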

How the results depend on the processing

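The rise of SAT1 in C2 kept its call in both comparisons under the 30 alternatives run for it, and limma called no polyamine gene between C1 and NC1 under any of the 32 alternatives of that count. The other calls were less stable. Over single left-out arrays the count of called polyamine genes ran from 1 to 5 in C2 against C1 and from 2 to 4 in C2 against NC1, and that of genes differing among the 3 stages from 1 to 4. With unequal spreads these counts were 1, 1 and 1. The count among stages was 2 with array weights, with close C2 arrays averaged and after quantile normalization, and 1 with the slide as a block. With only probes of a member's own gene ID, 2 genes were called against C1 and 2 against NC1. For the 27 genes around the pathway, single left-out arrays gave 0 to 1 calls in C1 against NC1, 10 to 13 in C2 against C1 and 4 to 9 in C2 against NC1. Array weights gave 1 call in C1 against NC1 and 4 in C2 against NC1, normexp gave 5 in C2 against NC1, and unequal spreads gave 5 against C1 and 2 against NC1. The cause was not tested.

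The replicate numbers do not pair the samples: same-numbered arrays had correlations of their deviations from -0.32 to 0.25, and 1 of the arrays correlated best with its own number. Same-numbered arrays of C2 and NC1 did share a slide, in all 5 pairs, while same-numbered C1 arrays lay on other slides. With the replicate number as a block, OAZ1 in C2 against C1 was 0.69 (adjusted p = 0.0158) and was not called. Under the replicate block the genes differing among stages numbered 1 and the calls around the pathway in C2 against NC1 numbered 3.

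Signs turned only in differences that were not called, and under the settings that turned them the adjusted p was 0.31 or more. Scaling to the 75th percentile moved the median of all tested probes in C2 against C1 from 0.02 to -0.11, and normexp moved that of C1 against NC1 from 0.05 to 0.20. In C2 against NC1, SAT2 became -0.12 (75th percentile), -0.0298 (close C2 arrays averaged), -0.19 (quantile) and -0.0025 (slide block), and SMOX became -0.0860 (75th percentile), -0.0219 (array weights), -0.0050 (quantile) and -0.0113 (slide block). AMD1 in C2 against NC1 became -0.0527 with array weights, SMOX in C2 against C1 became 0.0512 with close C2 arrays averaged, and AZIN1 in C2 against NC1 became 0.0353 with normexp. Normexp also turned C1 against NC1 to 0.19 for AZIN1, 0.24 for OAZ1, 0.32 for ODC1 and 0.30 for SMS (LOC534520), the last being 0.0001 with array weights. Over left-out arrays, C1 against NC1 ran from -0.21 to 0.0164 for AZIN1, from -0.11 to 0.03 for ODC1 and from -0.0763 to 0.0746 for SMS. C2 against C1 ran from -0.36 to 0.16 for AZIN1 and from -0.26 to 0.0883 for SMOX. C2 against NC1 ran from -0.45 to 0.0675 for AZIN1, from -0.0626 to 0.16 for SAT2 and from -0.12 to 0.22 for SMOX. Signal over background limits OAZ2 and the 4 other dim probes, which were not tested.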

Other observations

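The spread between arrays differed between the genes and stages. In C2 the SD of AZIN1 was 0.83 on the log2 scale, with 79.0% of all tested probes below it, and that of SMS (LOC534520) was 0.75, with 74.2% below it. SAT1, whose level moved most between stages, had an SD of 0.35 in C2, with 26.2% of tested probes below it. In NC1 ODC1 and AZIN1 were among the probes that varied least, with SDs of 0.15 and 0.17 and with 4.61% and 6.43% of tested probes below them.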
